A study of Mus musculus with 11 samples.

Results

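The cornified envelope is the cross-linked protein shell that replaces the plasma membrane of a keratinocyte at the surface of the epidermis. Its building blocks are short, repetitive proteins that transglutaminases join to one another beneath the membrane of the dying cell. Most of them are encoded side by side in the epidermal differentiation complex, and they include loricrin, involucrin, the small proline-rich proteins (Sprr), the late cornified envelope proteins (Lce) and the S100-fused proteins, of which filaggrin also binds keratin filaments and yields the moisture-retaining amino acids of the stratum corneum. The genes analyzed here were those whose symbol starts with Sprr or Lce, together with Lor, Ivl, Crct1, Flg, Flg2, Hrnr, Rptn, Tchh, Tchhl1 and Crnn. This rule gave 47 of the 45777 genes in the table: 16 Sprr genes (12 of them Sprr2), 21 Lce genes (14 Lce1, 6 Lce3 and Lce6a), 7 genes of the S100-fused family (Flg, Flg2, Hrnr, Rptn, Tchh, Tchhl1 and Crnn), and Lor, Ivl and Crct1.

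RNA of skin and small intestine from BALB/c mice was sequenced after topical treatment with imiquimod (IMQ), which activates the receptor TLR7 and gives rise to a psoriasis-like inflammation of the skin. All mice, controls included, were shaved, were 8 to 10 weeks old at the first dose and received 62.5 mg of cream per day, either IMQ cream at 5% or Vaseline, for 5 to 8 days. Skin was sequenced from 3 controls (replicates 1 to 3) and 3 IMQ-treated mice (4 to 6), and small intestine from 3 controls (7 to 9) and 2 IMQ-treated mice (10 and 11). The labels name the shaved back and the right ear as treated sites, and the site from which each skin sample was taken is not given. The libraries were whole tissue, the sex and the days of treatment of each mouse were not given, and no label says which tissues came from one mouse, so p-values measure the spread between these samples.

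The libraries held 44995414 to 58526384 counts. The 8 keratinocyte markers examined (Krt5, Krt14, Krt1, Krt10, Dsg3, Dsg1a, Trp63 and Col17a1) had counts in all skin libraries, with summed levels of 11135 to 23030 TPM (transcript shares scaled to the same total in every library) in controls and 16639 to 30158 in IMQ-treated skin, and the same sum was 1.09 to 3.02 in small intestine. Control replicate 2 of the skin stood apart. It had counts for all 12 markers of the small intestinal epithelium, with a sum of 651 TPM against 33.9 to 80.9 in the other skin libraries. Its hair follicle inner root sheath markers summed to 85.5 TPM, against 1482 and 2309 in the other controls and 42.8 to 50.8 in IMQ-treated skin. Calls of members that change without this library are given in both ways. Calls of other genes, those of the marker lists included, were not examined without it.

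The members formed one stretch of chromosome 3 at chr3:92080271-93471980 (1391.7 kb, GRCm38). Lor stood at one end, followed by the Sprr block, Ivl, the Lce block, and the S100-fused genes at the other end. The 12 Sprr2 genes occupied 218.1 kb and the 6 Lce3 genes 68.1 kb, with no other member inside either block. Near-identical copies limit what a count can show, because a read from a shared stretch fits several genes. Of the 100-base windows of the annotated Sprr2a1 and Sprr2a2 transcripts, 92.5% and 92.8% also occurred in another gene, and the share was 36.3% for Sprr2a3. These shares are those of the longest GENCODE M21 transcript of each gene, which can differ from the transcript quantified. The counts of Sprr2a1 and Sprr2a2 differed by 0.405% to 6.26% of their mean in skin, so these 2 genes could not be told apart. The share was 43.0% for Lce3f, 36.4% for Lce3e, 28.3% for Lce3d and 24.2% for Lce3c, at most 1.16% for the other Sprr2 genes, and 0 for 25 of the 47 members.

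The 200 bases before the annotated start are shown for 5 members that rose, because the Sprr2 genes share an arrangement of short motifs there. They are the reference sequence of GRCm38 from RefSeq, plus strand, at chr3:92316505-92316704 (Sprr2b), chr3:92338940-92339139 (Sprr2d), chr3:92385485-92385684 (Sprr2h), chr3:93393499-93393698 (Rptn) and chr3:92932779-92932978 (Lce3b). Capitals mark matches to TGANTCA (the AP-1 motif), ATGCAAAT (the octamer, read here from the other strand as ATTTGCAT) and TATAAA.
Sprr2b: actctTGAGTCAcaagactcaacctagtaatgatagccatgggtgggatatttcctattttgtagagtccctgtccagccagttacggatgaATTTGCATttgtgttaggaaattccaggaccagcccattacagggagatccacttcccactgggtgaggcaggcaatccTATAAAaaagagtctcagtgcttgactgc
Sprr2d: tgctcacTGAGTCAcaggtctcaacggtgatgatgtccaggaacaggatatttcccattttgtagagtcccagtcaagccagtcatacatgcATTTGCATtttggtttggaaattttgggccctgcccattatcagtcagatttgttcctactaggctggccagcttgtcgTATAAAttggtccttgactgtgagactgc
Sprr2h: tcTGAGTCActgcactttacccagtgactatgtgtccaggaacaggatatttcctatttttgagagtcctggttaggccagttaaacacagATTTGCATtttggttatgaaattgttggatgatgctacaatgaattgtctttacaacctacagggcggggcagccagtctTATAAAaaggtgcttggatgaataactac
Rptn: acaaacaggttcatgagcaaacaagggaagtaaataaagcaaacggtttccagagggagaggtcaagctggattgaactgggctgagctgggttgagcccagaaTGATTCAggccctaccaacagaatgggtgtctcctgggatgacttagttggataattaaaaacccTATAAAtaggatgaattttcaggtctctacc
Lce3b: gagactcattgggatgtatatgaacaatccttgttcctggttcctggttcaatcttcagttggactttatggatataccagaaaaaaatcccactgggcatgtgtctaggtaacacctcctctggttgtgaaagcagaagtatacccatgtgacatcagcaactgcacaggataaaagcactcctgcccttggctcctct

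RefSeq gave a window from 250 bases before to 50 bases after the start for 43 of the 47 members, and both strands were searched. In 7 of the 10 Sprr2 genes with a window (Sprr2b, Sprr2d, Sprr2e, Sprr2f, Sprr2h, Sprr2i and Sprr2k) the AP-1 motif lay at positions -198 to -182 from the start, the octamer at -112 to -108 and TATAAA at -29. Among all 27025 genes with a window, 9.0% held the AP-1 motif, 2.0% the octamer and 15.7% TATAAA. No other member held the octamer, whereas the AP-1 motif was found in 16 members, among them Lor, Ivl, Flg and Sprr1a, whose levels gave no call in the skin. The windows of Sprr2a1 to Sprr2a3 held neither the AP-1 motif nor the octamer. Their annotated starts were not aligned with those of the other Sprr2 genes. The longest run that Sprr2a1 shared with Sprr2b (18 bases) began at position 5 from the annotated start in Sprr2a1 and at -80 in Sprr2b. With this offset, the positions of both motifs in Sprr2b would still fall inside the searched window of Sprr2a1. None of the 6 Lce3 windows held the AP-1 motif or the octamer. These matches are letters in a reference sequence and no binding was measured.

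In the skin, every Sprr2 and Lce3 gene that could be tested rose, whereas the values of the groups overlapped for loricrin, involucrin, filaggrin and all 14 Lce1 genes. Of the 43 members with a count in all 6 skin libraries, 17 were higher in IMQ-treated skin (edgeR, adjusted p under 0.05 over all 20512 genes tested), where 4.05% of all genes tested were higher and 6.74% were called in either direction. No member was called lower by edgeR, where 2.69% of all genes were, although 5 members (Tchh, Sprr4, Flg2, Crnn and Lce1m) were lower at an unadjusted p under 0.05 and DESeq2 called 3 of them. At an unadjusted p under 0.05, 23.2% of all genes passed in either direction. The share of all genes that DESeq2 called is not given. The 17 members were 10 of the 10 Sprr2 genes tested, 5 of the 5 Lce3 genes tested, Sprr1b and Rptn. The median log2 fold change was 0.58 over the 43 members and -0.014 over all genes. The values of the groups did not overlap for 17 members that were higher and 2 that were lower, against 15.1% and 13.3% of all genes. In whole tissue, more cells that express a gene and more RNA per cell cannot be told apart.

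**Figure D1:**
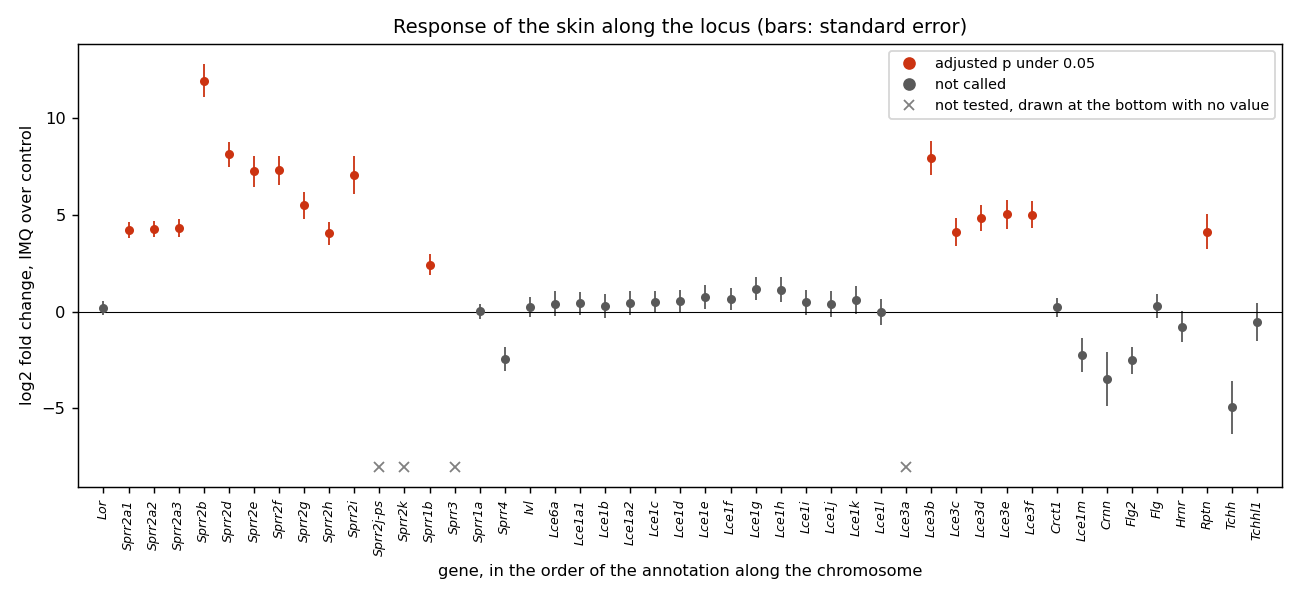
Log2 fold change of each member in IMQ-treated over control skin, with genes placed in their order along chromosome 3 and bars giving the standard error (3 libraries per group). The Sprr2 and Lce3 blocks, Sprr1b and Rptn lie between 2.42 and 11.91 (red, adjusted p under 0.05), most of the Lce1 genes between them lie near 0, and the 4 members without a count in some skin library are crosses at the bottom.

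The small proline-rich proteins act as cross-bridges between other envelope proteins, and Sprr2 is the largest group among them. Sprr2b moved from the edge of detection to a high level. It had 0.0910, 0.0473 and 0.0959 FPKM (fragments scaled to transcript length and library size) in control skin and 591, 227 and 148 in IMQ-treated skin. The control libraries held 10 counts in all and the IMQ libraries 35314, a ratio of 3954 with a 95% interval of 2150 to 8246 that covers counting error only. The fitted log2 fold change was 11.91 (SE 0.86, adjusted p = 0.00218), the highest among all 20512 genes tested. Sprr2d had 4.01, 2.88 and 1.37 FPKM in controls and 1145, 628 and 426 with IMQ, and rose by 8.11 on the log2 scale (SE 0.64, adjusted p = 0.00238). In controls Sprr2d ranked 32 among the members by mean FPKM, and in IMQ-treated skin it ranked 1, above Lor. This rank depends on transcript length. The longest GENCODE M21 transcript was 681 bases for Sprr2d and 2867 for Sprr2a2. The lengths behind the FPKM values can differ from these and were not examined. By mean normalized counts in IMQ-treated skin, several members, among them Lor (46283) and Sprr2a2 (37173), were above Sprr2d (27873).

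The other Sprr2 genes rose from different starting levels. Sprr2e had 1.40, 0.598 and 0.326 FPKM in controls and 197, 93.2 and 49.2 with IMQ (log2 fold change 7.24, adjusted p = 0.00533). Sprr2f had 0.339, 0.361 and 0.165 against 71.7, 45.6 and 15.8 (7.29, adjusted p = 0.00445). Sprr2i had 0.536, 1.01 and 0.0821 against 134, 60.9 and 21.8 (7.07, adjusted p = 0.0117). All 3 were low in every control and were highest in IMQ replicate 4. Sprr2g, annotated as a transcribed pseudogene, had 2.31, 1.47 and 0.931 FPKM in controls and 114, 62.6 and 24.8 with IMQ (5.48, adjusted p = 0.00850). Sprr2h had 20.1, 7.66 and 7.67 against 300.1, 159 and 96.4 (4.04, adjusted p = 0.0136). Sprr2h was thus among the higher Sprr2 genes before treatment and showed the smallest fold of the group.

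The 3 Sprr2a genes, of which Sprr2a1 and Sprr2a2 are near-identical, had the highest control levels of the Sprr2 group beside Sprr2h. Sprr2a1 had 14.9, 8.83 and 7.06 FPKM in controls and 174, 249 and 116 with IMQ (log2 fold change 4.19, adjusted p = 0.00432). Sprr2a2 had 14.8, 8.79 and 7.03 against 183, 265 and 119 (4.27, adjusted p = 0.00432). Sprr2a3 had 27.3, 18.4 and 9.62 against 313, 510.5 and 238 (4.31, adjusted p = 0.00611). By FPKM Sprr2a3 was above Sprr2a1, but by counts it was below, with 2637 against 6155 in all controls. Because reads can fit more than one of these genes, the counts of all 3 were also summed, an alternative added after the data were seen, and the sum rose by 4.24 (SE 0.44, adjusted p = 0.00464). The Sprr2a genes were highest in IMQ replicate 5, whereas the other Sprr2 genes were highest in replicate 4. The remaining 2 Sprr2 genes, named after their values were seen, had no count in some control library and were not tested. Sprr2j-ps, a pseudogene, had 4, 0 and 3 counts in controls and 629, 434 and 171 with IMQ, a ratio of 197 (95% counting interval 95.5 to 492). Sprr2k had 5, 3 and 0 against 201, 55 and 17, a ratio of 38.2 (19.1 to 89.4). In edgeR without the filter on low counts, the adjusted p was 0.00574 for Sprr2j-ps and 0.0651 for Sprr2k. With filterByExpr, another filter, it was 0.00529 and 0.0495. Without control replicate 2, the library with no count of it, Sprr2j-ps could be tested and was called (7.09, adjusted p = 0.00911 in edgeR).

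The Sprr genes outside the Sprr2 block behaved differently from one another. Sprr1b had 136, 57.6 and 58.2 FPKM in controls and 662, 410.4 and 212 with IMQ, without overlap, and rose by 2.42 on the log2 scale (SE 0.52, adjusted p = 0.0427). Sprr1a, the most abundant Sprr gene of control skin by FPKM, had 304, 291 and 164 in controls and 316, 277 and 142 with IMQ. The 2 groups of Sprr1a overlapped (log2 fold change 0.0048, SE 0.37, adjusted p = 0.996). Within each library, the ratio of Sprr1b to Sprr1a FPKM was 0.448, 0.198 and 0.354 in controls and 2.09, 1.48 and 1.5 with IMQ. Sprr4, named after its values were seen, had 259, 357 and 63.2 FPKM in controls and 40.4, 49.4 and 31.5 with IMQ. Each IMQ value of Sprr4 was below each control value, but the difference was not called (-2.46, SE 0.61, adjusted p = 0.0608). DESeq2 gave an adjusted p of 0.000162 for Sprr4, and edgeR without control replicate 3 gave 0.00732. Sprr3 had 4, 0 and 0 counts in controls and 3, 5 and 0 with IMQ, too few for a comparison.

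The Sprr transcripts of the skin changed in makeup. Sprr2 genes made up 10.96%, 6.62% and 10.7% of the summed Sprr TPM in controls and 76.1%, 75.9% and 76.6% in IMQ-treated skin. The share varied by less than 1 percentage point among the 3 IMQ libraries, although their summed Sprr2 TPM ran from 2631 to 7361. In controls the Sprr2 sum was 79.1 to 206 TPM. The call of Sprr1b was lost in 5 of the 6 fits that left out 1 library, with adjusted p-values of up to 0.131 and with 2.24 (adjusted p = 0.0731) without control replicate 2. Among the Sprr2 genes tested, Sprr2h lost its call without IMQ replicate 5 (adjusted p = 0.0537) and Sprr2i without control replicate 1 (adjusted p = 0.0632).

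**Figure D2:**
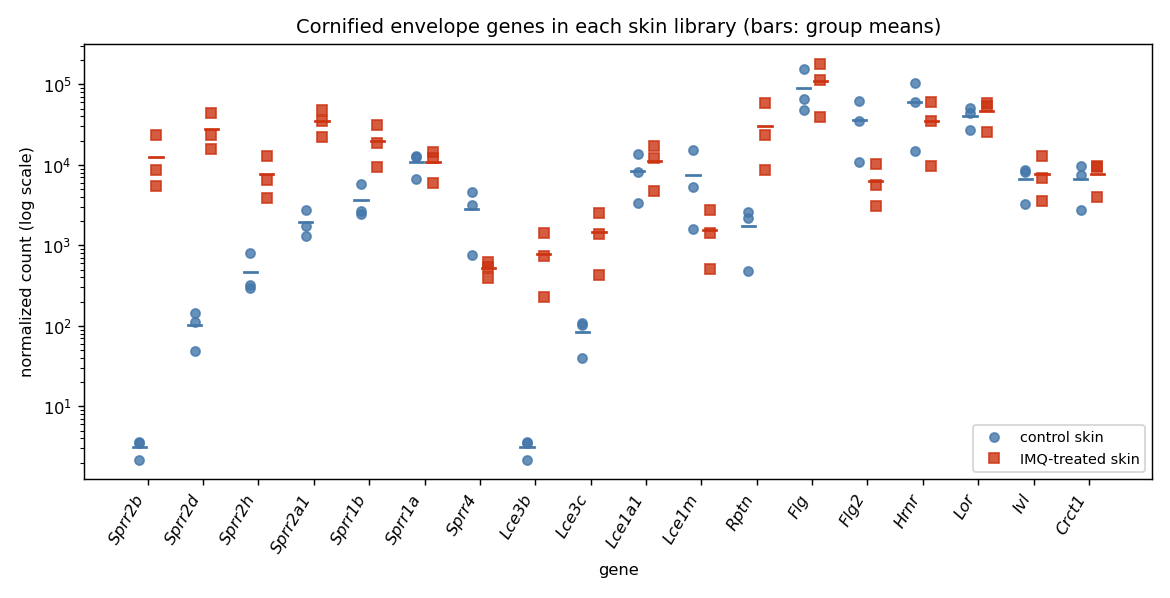
Normalized counts on a log scale for 18 members in each skin library, controls as blue circles and IMQ as red squares, with the group mean as a bar (3 libraries per group). Sprr2, Sprr1b, Lce3 and Rptn values do not overlap between the groups and are higher with IMQ, Sprr4 and Flg2 values do not overlap and are lower, and the other members shown overlap.

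The late cornified envelope proteins are glycine- and cysteine-rich precursors that enter the envelope late, and the Lce3 group is known for its expression in injured and psoriatic epidermis. All 5 Lce3 genes that could be tested rose. Lce3b had 0.110, 0.0692 and 0.106 FPKM in controls and 43.9, 23.8 and 7.60 with IMQ. Lce3b had 10 counts in all controls and 2219 with IMQ, a ratio of 248 (95% counting interval 135 to 519), and its fitted log2 fold change was 7.92 (SE 0.87, adjusted p = 0.00548). Lce3c had 3.64, 3.24 and 1.35 FPKM in controls and 78.9, 44.6 and 14.1 with IMQ (4.12, SE 0.72, adjusted p = 0.0234). The lowest IMQ value of Lce3c was thus above the highest control value, and the same held for the remaining Lce3 genes. Lce3d had 1.64, 0.646 and 0.969 against 47.5, 31.3 and 10.0 (4.82, adjusted p = 0.0117). Lce3e had 1.55, 0.637 and 0.797 against 54.5, 29.3 and 9.50 (5.02, adjusted p = 0.0138). Lce3f had 2.30, 0.811 and 0.778 against 64.0, 40.3 and 15 (5.00, adjusted p = 0.0122). IMQ replicate 6 was the lowest of the treated libraries for all 5 genes, and it also had the lowest keratinocyte marker sum of the IMQ group. Lce3a, named after its values were seen, was not tested because it had 0, 2 and 0 counts in controls. It had 1083, 494 and 186 counts with IMQ, a ratio of 987 (95% counting interval 273 to 8157). In edgeR without the filter on low counts, the adjusted p of Lce3a was 0.00786.

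Several Lce3 calls were lost when 1 library was left out, although each Lce3 gene tested was called in all 7 alternatives that kept all libraries. Fewer genes in all were called without IMQ replicate 5. Without IMQ replicate 5, the calls of Lce3c, Lce3d, Lce3e and Lce3f were lost, with adjusted p-values of 0.0525 to 0.0828, and without control replicate 1 those of Lce3c (0.0856) and Lce3e (0.0528) were lost. Lce3c also lost its call without control replicate 3 (0.0543) or IMQ replicate 4 (0.0580). Lce3b kept its call in all 6 such fits.

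The Lce1 genes, which are expressed in normal epidermis, gave 0 calls among 14 tested with edgeR or DESeq2 (1 had an unadjusted p under 0.05 in edgeR), and their log2 fold changes ran from -2.26 to 1.18 (median 0.48). Lce1a1, the most abundant of them, had 220.0, 344 and 91.6 FPKM in controls and 299, 435 and 127 with IMQ (0.43, SE 0.59, adjusted p = 0.719). Lce1b had 119, 217 and 48.7 against 158, 237 and 63.7 (0.28, adjusted p = 0.836). Lce1c had 115, 166 and 43.9 against 161, 213 and 68.4 (0.48, adjusted p = 0.669). Control replicate 3 and IMQ replicate 6 were the lowest libraries of their groups for these 3 genes, so the spread within a group was larger than the difference between the groups. Lce1m, which lies apart from the other Lce1 genes beyond the Lce3 block and is named after its values were seen, had 117, 309 and 35.3 FPKM in controls and 28.3, 56.2 and 10.8 with IMQ. It was the only Lce1 gene beside Lce1l with a negative log2 fold change, and it was not called (-2.26, SE 0.88, adjusted p = 0.189). Its FPKM per FPKM of Lce1a1 was 0.533, 0.899 and 0.386 in controls and 0.0947, 0.129 and 0.0853 with IMQ, which did not overlap. Lce3 transcripts made up 0.776%, 0.288% and 0.906% of the summed Lce TPM in controls and 17.2%, 7.95% and 9.56% with IMQ.

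**Figure D3:**
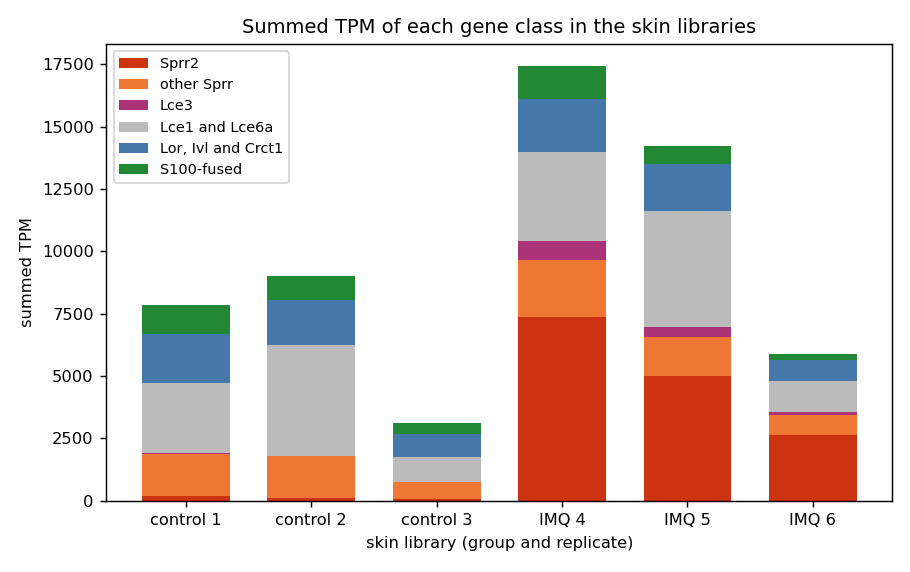
Summed TPM of the members in the 6 skin libraries, stacked by class (Sprr2, other Sprr, Lce3, Lce1 with Lce6a, Lor with Ivl and Crct1, and S100-fused). The Sprr2 part is 79.1 to 206 TPM in controls and 2631 to 7361 with IMQ, and control replicate 3 and IMQ replicate 6 have the lowest totals of their groups.

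The S100-fused proteins carry an S100-like calcium-binding part followed by long repeats. Repetin was the member of this family that rose. Rptn had 10.1, 11.1 and 2.25 FPKM in controls and 251, 102 and 38.9 with IMQ, and rose by 4.12 on the log2 scale (SE 0.90, adjusted p = 0.0439). All IMQ values were above all controls, but the call was lost in 5 of the 6 fits that left out 1 library, with adjusted p-values of up to 0.136 and with 4.51 (adjusted p = 0.0561) without control replicate 2. Filaggrin, the matrix protein of the stratum corneum, had 219.8, 86.6 and 68.1 FPKM for Flg in controls and 230.4, 150.1 and 54.1 with IMQ (0.29, SE 0.63, adjusted p = 0.827). The groups of Flg overlapped over nearly their whole range. The ratio of Rptn to Flg FPKM in the same library was 0.0462, 0.128 and 0.0330 in controls and 1.09, 0.679 and 0.718 with IMQ.

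The filaggrin-like members Flg2 and Hrnr had lower means with IMQ. Flg2 had 87.1, 144 and 27.3 FPKM in controls and 12.6, 23.9 and 7.41 with IMQ. These groups did not overlap, and the difference of -2.52 (SE 0.69, adjusted p = 0.0801) was not called by edgeR, whereas DESeq2 gave an adjusted p of 0.000498 and edgeR without control replicate 3 gave 0.0350. The Flg2 to Flg ratio was 0.396, 1.66 and 0.401 in controls and 0.0549, 0.160 and 0.137 with IMQ, also without overlap. Hrnr had 108, 173 and 26.9 FPKM against 97.3, 59.3 and 16.9, which overlapped (-0.78, SE 0.81, adjusted p = 0.617).

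Trichohyalin, which hardens the inner root sheath of the hair follicle, varied strongly among the controls, as did cornulin and trichohyalin-like 1. Tchh had 50.5, 0.560 and 55.6 FPKM in controls and 1.43, 1.07 and 0.744 with IMQ. Crnn had 8.13, 0.0535 and 8.06 in controls and 0.932, 0.209 and 0.181 with IMQ. Tchhl1 had 0.394, 0.0187 and 0.653 in controls and 0.401, 0.221 and 0.0559 with IMQ. Control replicate 2 was the lowest of all 6 libraries for each of the 3 genes. The inner root sheath marker sums moved with Tchh and Crnn, at 1482, 85.5 and 2309 TPM in controls and 50.8, 42.8 and 48.2 with IMQ, and Krt26 was the 1 marker of 9 at 0 in control replicate 2 and all 3 IMQ libraries, with 1 further marker at 0 in each. Tchhl1 did not follow these sums, since IMQ replicate 4 was as high as control replicate 1. Their part in these values was not tested. The log2 fold changes were -4.94 for Tchh (SE 1.38, adjusted p = 0.0846), -3.48 for Crnn (SE 1.40, adjusted p = 0.198) and -0.54 for Tchhl1 (SE 0.99, adjusted p = 0.795). Without control replicate 2, Tchh (-5.52, adjusted p = 0.00171) and Crnn (-4.06, adjusted p = 0.0191) were called lower and 16 members were called higher. The share of all genes called in that fit is not given.

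**Figure D4:**
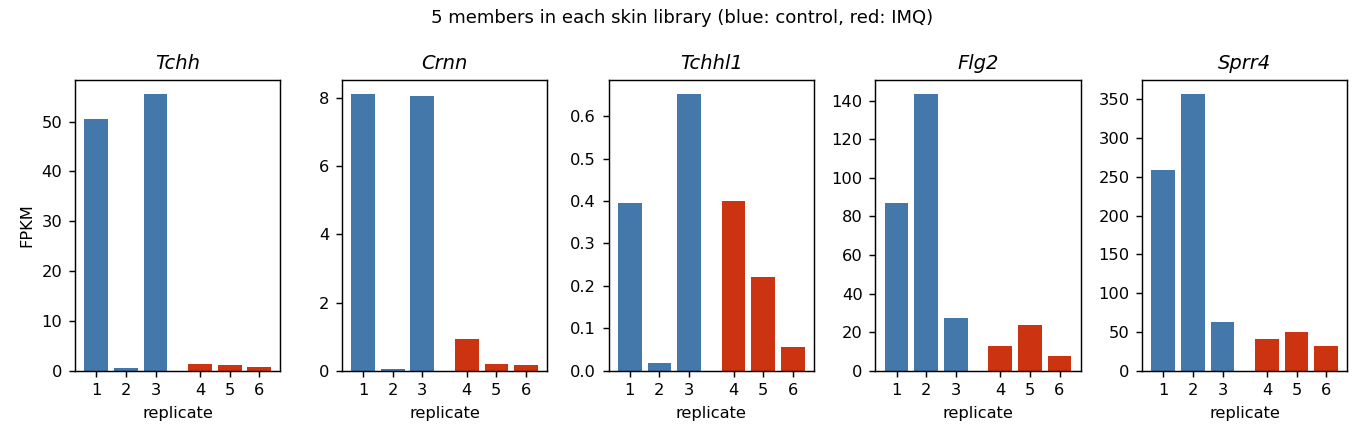
FPKM of Tchh, Crnn, Tchhl1, Flg2 and Sprr4 in each skin library, controls in blue (replicates 1 to 3) and IMQ in red (replicates 4 to 6), each panel with its own axis from 0. Tchh and Crnn are high in control replicates 1 and 3 only, whereas Flg2 and Sprr4 are higher in all 3 controls than in any IMQ library.

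Loricrin and involucrin are the main structural and the early scaffold protein of the envelope. Lor, the most abundant member of control skin, had 548, 440.2 and 291 FPKM in controls and 579, 558 and 266 with IMQ (0.19, SE 0.37, adjusted p = 0.810). Ivl had 80.4, 79.5 and 32.5 against 117, 65.0 and 34.4 (0.23, SE 0.52, adjusted p = 0.842). Crct1 had 198, 239 and 75.2 against 235, 239 and 103 (0.22, SE 0.50, adjusted p = 0.840). The groups overlapped for all 3 genes, and control replicate 3 and IMQ replicate 6 were the lowest of their groups. Against Lor as an internal reference, Sprr2d was at 0.00732, 0.00655 and 0.00472 of the Lor FPKM in controls and at 1.98, 1.13 and 1.60 with IMQ. By mean FPKM the leading members of control skin were Lor, Sprr1a, Sprr4 and Lce1a1, and those of IMQ-treated skin were Sprr2d, Lor, Sprr1b, Sprr2a3 and Sprr2b. The ranges of neighbors in the second order overlapped, since Sprr2d ran from 426 to 1145 and Lor from 266 to 579. Within each IMQ library Sprr2d was above Lor by FPKM and below it by counts. Both orders depend on the annotated length of each transcript and differ from an order by counts.

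The level of each member can also be read per keratinocyte transcript, as its TPM divided by the summed TPM of the 8 keratinocyte markers of the same library. On this scale, a description without a test, 17 of the 43 members tested in skin were higher in every IMQ library than in any control, where 2.72% of the 20512 genes tested were. Lower in every IMQ library were 5 members (Sprr4, Flg2, Lce1m, Sprr1a and Lor), where 16.2% of all genes tested were, and the groups overlapped for 21. The 5 lower members are named after their values were seen. Per 1000 TPM of the markers, Sprr4 was at 13.1 to 37.5 in controls and 3.04 to 3.95 with IMQ, and Flg2 at 5.64 to 15.1 and 0.930 to 1.91. Lor was at 46.2 to 60.2 and 33.4 to 44.6 on this scale, whereas its normalized counts overlapped between the groups. Krt14, one of the markers, was itself called higher in IMQ-treated skin.

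Genes that act on these proteins were counted in the same test, where 4.05% of all genes were higher and 2.69% lower. Of 12 cross-linking and scaffold genes, 1 was higher and 0 were lower. It was Tgm3, a transglutaminase that joins envelope precursors (2.73, SE 0.32, adjusted p = 0.00699). Of 12 genes of filaggrin processing, 1 was higher and 0 were lower, and it was Casp14, a protease of filaggrin breakdown (1.68, adjusted p = 0.0447). Keratins of injured and hyperproliferative epidermis rose for 3 of 4 genes, with Krt6b the largest at 5.24 (adjusted p = 0.00770). Of 7 basal and suprabasal keratins, 1 was higher (Krt14, 1.41, adjusted p = 0.0447) and 3 were lower, of which Krt77 had the lowest value (-8.08, adjusted p = 0.00291). Of 20 transcription regulators of envelope genes, 2 were higher and 1 was lower. The largest rise was that of Fosl1, an AP-1 subunit (4.30, SE 0.91, adjusted p = 0.0403), and the fall was that of Gata3 (-0.84, adjusted p = 0.0122). Of the markers of other cell types, 2 of 6 tested inner root sheath genes and 2 of 5 tested hair shaft genes were lower. In both lists 0 were higher, and the falls were led by Krt28 (-7.11, adjusted p = 0.0403) and Krt32 (-3.54, adjusted p = 0.00624). Gata3, counted above as a regulator, was the other inner root sheath gene called. The lists held 9 and 13 genes, and those without a count in some skin library, Krt26 among them, were not tested. Of 3 tested small intestinal epithelium genes, Lyz1 was lower (-1.82, adjusted p = 0.0374). Of 4 tested genes of mouth, esophagus and forestomach epithelium, 1 was higher, and it was Krt6a, which is also on the list of injury keratins. Krt14 was the 1 gene of 8 keratinocyte markers that was called. The calls of these lists were not examined without skin control replicate 2, which had low inner root sheath markers.

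In the small intestine nearly the whole family was silent. Of the 47 members, 37 had 0 counts in all 5 libraries, 10 had a count in at least 1 library, and 4 (Sprr2a1, Sprr2a2, Sprr2a3 and Tchh) had counts in all 5. None of the 4 was called in edgeR's test, where 2.95% of the 19965 genes tested were called, and Tchh was the 1 member with an unadjusted p under 0.05 by edgeR, where 12.3% of all genes passed. DESeq2 and limma also called 0. Of the 37 members without a count, 33 were above a floor of 3 counts per library in control skin. For 23 of them the level in control skin was at least 100-fold higher than that floor in small intestine, and the bound was 21037-fold for Hrnr, 12645-fold for Flg2 and 2963-fold for Lce1a1.

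The Sprr2a genes were the members with a level in the small intestine, where they are known as genes of the epithelium that respond to bacteria. Sprr2a1 had 0.347, 0.293 and 2.18 FPKM in controls and 0.857 and 4.86 with IMQ. Sprr2a2 had 0.348, 0.277 and 2.17 against 0.852 and 4.83. Sprr2a3 had 2.67, 2.1 and 12.2 against 5.43 and 31.6. Control replicate 9 was higher than IMQ replicate 10 for all 3 genes, so the groups overlapped. The log2 fold changes were 1.63 for Sprr2a1 (SE 1.0, adjusted p = 0.615), 1.63 for Sprr2a2 (SE 1.01, adjusted p = 0.620) and 1.75 for Sprr2a3 (SE 0.92, adjusted p = 0.536). Summed over the 3 genes, the normalized counts were 279, 209 and 1557 in controls and 613 and 3796 with IMQ. Without IMQ replicate 11 the fold changes were -0.20, -0.19 and -0.11, so the direction rested on that library. Without control replicate 9 they were 3.25, 3.29 and 3.06, so the size depended on that library too. The keratinocyte marker sums were 1.66, 1.47 and 3.02 TPM in control small intestine and 1.09 and 1.38 with IMQ. Control replicate 9 had the highest of these sums, and IMQ replicate 11, with the highest Sprr2a level, had 0 counts of Lor and Flg. Sprr2a3 alone was at 24.9 TPM in control replicate 9, above the marker sum of that library. In skin it was at most 40.8 TPM per 1000 TPM of the markers. A part of skin transcripts in these values was not tested.

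**Figure D5:**
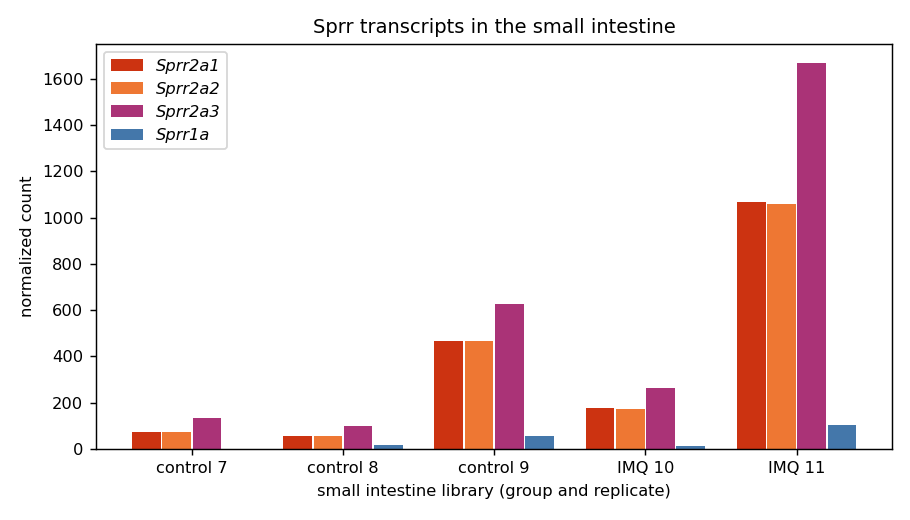
Normalized counts of Sprr2a1, Sprr2a2, Sprr2a3 and Sprr1a in the 5 small intestine libraries (3 control, 2 IMQ). Control replicate 9 and IMQ replicate 11 are the highest libraries, and IMQ replicate 10 lies below control replicate 9 for all 4 genes.

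Sprr1a was likewise highest in control replicate 9 and IMQ replicate 11, with 0, 17 and 60 counts in control small intestine and 13 and 92 with IMQ, and was not tested because it had no count in 1 library. Tchh had 16, 23 and 18 counts in controls and 42 and 36 with IMQ. The Tchh groups did not overlap (1.03, SE 0.32, adjusted p = 0.202), as was the case for 15.1% of all genes in this direction. The levels were low, at 0.0472 to 0.113 FPKM. The largest counts of the remaining 5 members with any count were 17 for Flg and 8 for Lor, both in control replicate 9, 6 for Rptn, 3 for Lce3f and 2 for Sprr2f.

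The response could be compared between the tissues for 4 members only, and the interaction of tissue and treatment was not called for any, where 2.55% of 18108 genes were called and 16.9% had an unadjusted p under 0.05. For the Sprr2a genes the interaction (small intestine minus skin) was -2.54 (Sprr2a1, SE 1.20, adjusted p = 0.316), -2.62 (Sprr2a2, SE 1.21, adjusted p = 0.306) and -2.55 (Sprr2a3, SE 1.17, adjusted p = 0.302) on the log2 scale. The unadjusted p-values were 0.0580, 0.0544 and 0.0527. Tchh had the opposite sign (5.96, SE 1.80, unadjusted p = 0.00726, adjusted p = 0.120) and was called by DESeq2 and in the fit without skin control replicate 2. Between the control groups, Sprr2a1 (2.94, SE 0.79, adjusted p = 0.0161), Sprr2a2 (2.94, SE 0.80, adjusted p = 0.0170) and Tchh (8.78, SE 1.61, adjusted p = 0.00263) were higher in skin, where 25.7% of 18890 genes were. Sprr2a3 was not called (1.21, SE 0.72, adjusted p = 0.198), with 777 normalized counts (SD 368, n = 3) in skin and 334 (SD 346, n = 3) in small intestine.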

How the data were processed

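Libraries of skin and small intestine were demultiplexed with bcl2fastq 2.20.0, trimmed with Trimmomatic, aligned to mm10 with HISAT2 2.1.0 and quantified with StringTie 2.1.3b, according to the submitters' processing notes and the paper's methods. The authors deposited 1 table that gives each gene's read count, FPKM and TPM in each of the 11 libraries. How strand and multiply matching reads were counted is not given in the sources used here, so counts of near-identical copies are uncertain. The deposited counts were tested, FPKM gave levels per length, and TPM gave shares and marker sums.

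Genes with no count in some library of a tissue (minimum count 1) were left out there, and the rest were normalized by relative log expression and tested with edgeR 4.0.16 (quasi-likelihood) in R 4.3.3, adjusted by Benjamini-Hochberg over the genes tested, with a threshold of 0.05. The interaction was fitted on all 11 libraries. Standard errors are the fold change divided by the square root of F. Normalized counts are scaled to the mean effective library size. Alternatives were TMM, DESeq2 1.42.0, limma 3.58.1 on log2(FPKM + 0.01), filterByExpr, no filter, 1 fit of all libraries, leaving out each library and, added later, summed Sprr2a counts. Samples were grouped by their titles. The fitting steps were tested on simulated data.

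The members, the lists and the motifs were chosen with earlier results of these data known. Members given with all values are those called, the 10 genes outside the Sprr and Lce families, and the 3 Sprr and 3 Lce genes with the highest mean FPKM in each tissue. Of each list, the called genes with the largest rise and fall are named. Positions and promoters are those of RefSeq for GRCm38, and shared windows were counted on GENCODE M21 transcripts. Counting intervals are exact binomial and cover counting error only.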

Additional observations from a re-analysis of the deposited data

How the results depend on the processing

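No paired analysis was possible because the groups share no replicate number. In the skin, the number of members called higher was 17 with TMM, DESeq2, no filter, limma and 1 fit of all libraries, 20 with filterByExpr, 15 with the Sprr2a genes summed, and 10 to 17 when 1 library was left out, with 10 without IMQ replicate 5, where 258 genes in all were called. The number called lower was 0 in the main test, 3 with DESeq2 (Sprr4, Flg2 and Tchh), 2 with 1 fit of all libraries (Tchh and Sprr4) and 0 to 2 when 1 library was left out, with 2 without control replicate 2 (Tchh and Crnn) and 2 without control replicate 3 (Sprr4 and Flg2). The cause was not tested. Rptn (adjusted p = 0.0547) and Sprr1b (adjusted p = 0.0532) also lost their calls without the filter. Sprr2j-ps, Sprr2k and Lce3a, which filterByExpr added, had few or no counts in controls and entered through IMQ-treated skin. The larger number with filterByExpr thus follows from that filter. These numbers of members are given without the share of all genes called in each fit.

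In the small intestine 0 members were called under any alternative run. For the interaction the number was 1 with DESeq2 and 0 to 1 when 1 library was left out, with 1 without skin control replicate 2. Between the controls it was 36 with filterByExpr and 40 without a filter, since more members were then tested, and 3 to 4 when 1 library was left out. Of the 47 members, 37 had 0 counts in all 5 small intestine libraries. The added members thus mostly entered through the skin, and the larger numbers follow from the filter.

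Several members near 0 changed sign, without a call, when 1 library was left out. In the skin the log2 fold change then ran from -0.25 to 0.95 for Flg, from -0.35 to 0.57 for Ivl, from -0.042 to 0.49 for Lor, from -0.25 to 0.30 for Sprr1a, from -0.16 to 0.96 for Lce1b, from -1.27 to 0.18 for Tchhl1 and from -0.16 to 0.59 for Crct1. In the small intestine it ran from -0.20 (without IMQ replicate 11) to 3.25 for Sprr2a1, from -0.19 to 3.29 for Sprr2a2 and from -0.11 to 3.06 for Sprr2a3. In the skin, the log2 fold change of Sprr1a was -0.078 with limma and -0.025 with 1 fit of all libraries.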
